A study of Mus musculus with 4 samples.

Results

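The Hox cluster genes were examined in mammary tumours of MMTV-Neu mice with and without AXL. Members were taken as the protein-coding genes named Hoxa, Hoxb, Hoxc or Hoxd with a paralog number, matched by Ensembl identifier to GENCODE release M21 (build GRCm38). Of 39 such genes in the annotation, 38 had a row in the count files, among 38293 gene rows in all, and Hoxd4 was not analysed here. The 38 genes comprised 11 Hoxa, 10 Hoxb, 9 Hoxc and 8 Hoxd genes. RNA was sequenced from 4 tumours on the FVB strain, 2 labelled WT (WT1 and WT2) and 2 labelled AXL KO (KO1 and KO2, by their replicate numbers). All 4 come from MMTV-Neu mice, whose Neu (Erbb2) oncogene is driven by the mouse mammary tumour virus promoter, active mainly in mammary epithelium, and the AXL KO tumours also lack the receptor tyrosine kinase gene Axl. The labels give neither ages nor separate animals, so the spread between libraries of a group may in part be technical.

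Hox genes encode homeodomain transcription factors that give cells their position along the body axis. In the mouse they lie in 4 clusters, and within a cluster the order of the genes follows the order in which they are used from head to tail, so that low paralog numbers (anterior genes) act towards the head and high numbers (posterior genes) towards the tail. Adult tissues keep part of this code, and Hox genes of the ninth paralog group are needed for mammary gland growth in pregnancy. Neighbouring Hox genes share enhancers and are held silent or active together by Polycomb and Trithorax proteins.

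Reads counted in genes ranged from 18929743 to 33131739 per library. Levels are given as CPM, counts per 1000000 reads with library sizes corrected by TMM factors, and values in a row follow the order WT1, WT2, KO1, KO2. Axl was at 61.7, 35.2, 4.75 and 4.89 CPM, so the libraries labelled AXL KO were both lower than the WT ones. With a log2 difference of −3.33, Axl itself did not pass the edgeR test (adjusted p = 0.9997), so a Hox gene that was not called may still differ. WT2 stood apart from the other libraries: 186 of 14330 tested genes were over 4-fold above or below all the other libraries there (on CPM plus 1), against 5 to 19 in the others. The label of KO2 carries another library prefix than those of the other 3, and the 2 libraries with high HoxB levels below, WT1 and KO2, carry different prefixes. The strand setting of the counting is not given in the sources used here, and 11 of the 38 members share exon bases with another counted gene, so reads of such pairs are uncertain. In bulk tumour RNA, fewer cells of a type and less RNA per cell cannot be told apart.

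Most Hox genes were at or near 0 in these tumours, and reads concentrated on 3 neighbours of the HoxB cluster. All 38 genes together took 1569 reads over the 4 libraries. Of them 25 had at least 1 read and 13 had none in any library. Each of those 13 may reach 0.0324 CPM over the pooled libraries, by a 1-sided limit of 3 reads (counting error only). By position along the body axis, 6 of 8 anterior genes (paralogs 1 to 3), all 14 central genes (4 to 8) and 5 of 16 posterior genes (9 to 13) had a read. The 11 silent posterior genes were Hoxa11, Hoxa13, Hoxb9, Hoxb13, Hoxc11, Hoxc12, Hoxc13, Hoxd10, Hoxd11, Hoxd12 and Hoxd13, and the 2 silent anterior genes were Hoxb1 and Hoxd1. Hoxb9 is thus among the genes with no read, while its paralogs Hoxa9, Hoxc9 and Hoxd9 had 14, 9 and 16 reads in all. Only Hoxb2, Hoxb3 and Hoxb4 reached a mean of at least 1 CPM over the 4 libraries.

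**Figure D1:**
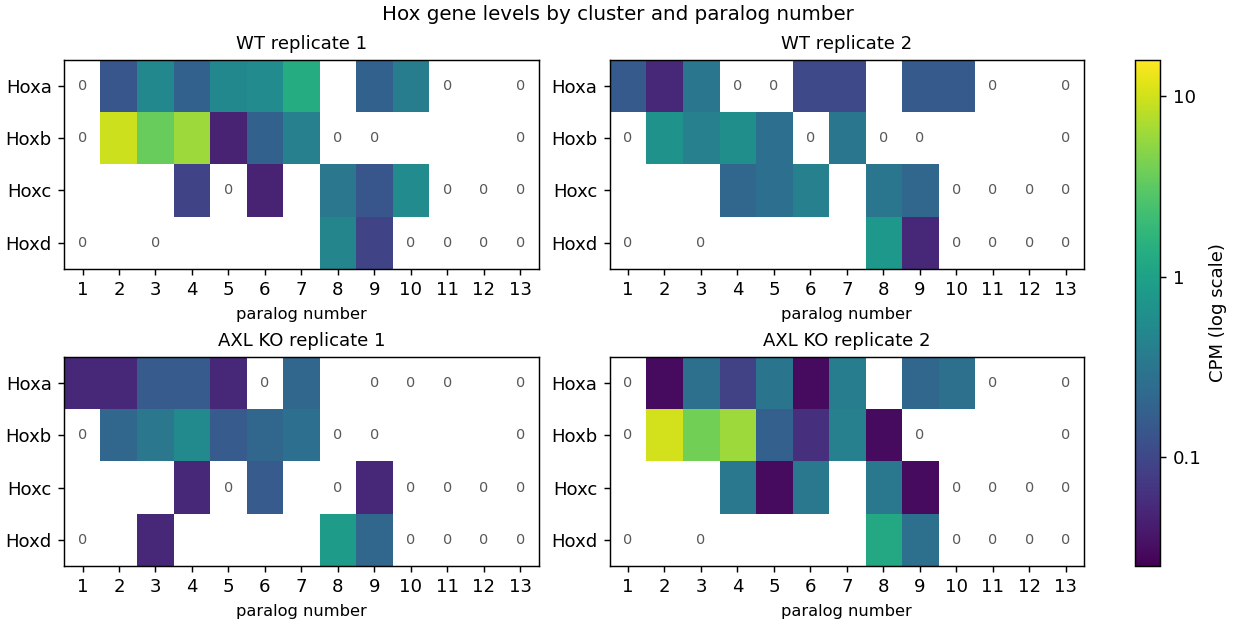
Level of each Hox gene as CPM on a log colour scale, with 1 panel per library, clusters as rows and paralog numbers as columns. A 0 marks a gene with no read, and an empty field has no gene in the files. Hoxb2, Hoxb3 and Hoxb4 are bright in WT1 and KO2 (3.55 to 10.3 CPM) and dim in the other libraries.

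Hoxb2, Hoxb3 and Hoxb4 were high in 1 tumour of each genotype and low in the other. Hoxb2, which patterns the hindbrain, had 208, 13, 4 and 344 reads. Its level was 9.72, 0.680, 0.214 and 10.3 CPM. The libraries of a genotype thus differed and the genotypes overlapped: Hoxb2 was 14.3-fold higher in WT1 than in WT2 (95% interval 8.17 to 27.3, exact, counting error only) and 48.3-fold higher in KO2 than in KO1 (18.7 to 178).

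Hoxb3, which acts in the hindbrain and pharyngeal region, was at 3.55, 0.419, 0.320 and 4.02 CPM, from 76, 8, 6 and 134 reads. Its ratios within the groups were 8.48 (4.09 to 20.4) in WT and 12.5 (5.61 to 34.8) in AXL KO. Hoxb4, best known for promoting the self-renewal of blood stem cells, was at 6.12, 0.628, 0.534 and 6.11 CPM, from 131, 12, 10 and 204 reads. Its ratios were 9.75 (5.40 to 19.4) in WT and 11.5 (6.10 to 24.2) in AXL KO. For the 3 genes the same libraries, WT1 and KO2, were high, and the counting intervals of high and low libraries did not overlap.

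**Figure D2:**
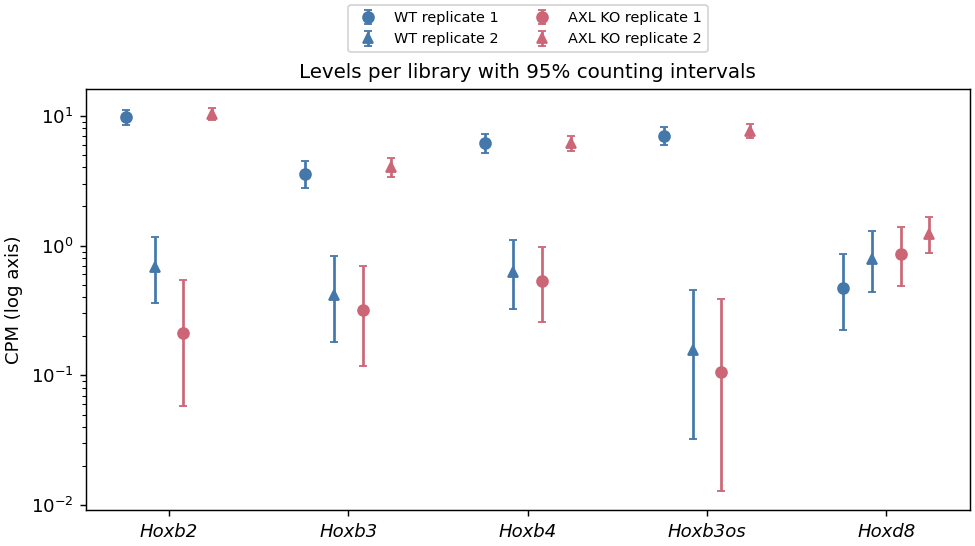
CPM on a log axis of Hoxb2, Hoxb3, Hoxb4, the antisense transcript Hoxb3os and Hoxd8 in each library, with bars for 95% exact Poisson intervals of the counts. The HoxB genes fall into a high and a low level in each genotype, while Hoxd8 runs from 0.467 to 1.23 CPM.

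The high libraries were also alike in level and in proportion. In WT1 and KO2, Hoxb4 was at 6.12 and 6.11 CPM, and Hoxb2 at 9.72 and 10.3 CPM. Of the reads on the 3 genes, Hoxb2 took 50.1% (Wilson 95% interval 45.3 to 54.9) and 50.4% (46.7 to 54.2), Hoxb4 31.6% (27.3 to 36.2) and 29.9% (26.6 to 33.5), and Hoxb3 18.3% (14.9 to 22.3) and 19.6% (16.8 to 22.8). Each pair of shares thus lay within the other's interval. In the low libraries the 3 genes had 33 and 20 reads in all. There Hoxb2 took 39.4% (24.7 to 56.3) in WT2, an interval that overlaps those of the high libraries. In KO1 it took 20.0% (8.07 to 41.6), an interval that lies below those of both high libraries, from 4 of 20 reads. The 3 genes made up 75.7% (72.0 to 79.1) and 80.9% (78.1 to 83.4) of all Hox reads in the high libraries, and 30.8% (22.9 to 40.1) and 28.2% (19.0 to 39.5) in WT2 and KO1.

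Within the HoxB cluster, steps of this size were seen over a stretch of 35.7 kb. Hoxb4, Hoxb3 and Hoxb2 follow each other on the plus strand of chromosome 11, from 96318267 to 96354012 in GRCm38. Hoxb1, whose start lies 11.7 kb beyond the end of Hoxb2, had 0 reads in every library. Hoxb5, which ends 12.1 kb before Hoxb4, had 1, 5, 3 and 6 reads. Hoxb6 had 4, 0, 4 and 2 reads, Hoxb7 9, 6, 5 and 14, and Hoxb8 1 read in all. Without the 3 genes the HoxB cluster summed to 0.654, 0.576, 0.641 and 0.689 CPM, from 14, 11, 12 and 23 reads. The counting intervals of these sums all overlapped, between 0.287 and 1.12 CPM, so smaller steps may be missed. The 3 genes differed by 8.48-fold or more within each group.

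Transcripts of the opposite strand in this stretch followed the same libraries. Hoxb3os, a noncoding gene of the minus strand that overlaps Hoxb2 and Hoxb3, was at 7.01, 0.157, 0.107 and 7.67 CPM, from 150, 3, 2 and 256 reads. Its ratio between libraries of a group was 44.7 (15.0 to 219) in WT and 71.9 (19.7 to 597) in AXL KO. Gm11536, a further antisense gene inside Hoxb3, had 5, 0, 0 and 15 reads. Hoxb2 shares 27.3% and Hoxb3 52.9% of its exon length with another counted gene, and without the strand setting the reads of these bases cannot be told apart. Hoxb4 shares no exon base with another counted gene and had the same high and low libraries. Of 22 noncoding genes of the 4 clusters in the files, 9 had a read, and Hoxb3os alone entered the test.

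Most tested genes beside the cluster ran in the same direction, with smaller steps. Of 10 tested protein-coding genes within 450 kb of the cluster or reaching into that window, 8 were, like Hoxb2, higher in WT1 than in WT2 and higher in KO2 than in KO1, and 26.9% of all 14330 tested genes were so. The nearest protein-coding gene past Hoxb1 is Skap1, which encodes an adaptor of the T cell receptor and starts 146 kb from the Hoxb4 start. It was at 1.03, 0.157, 0.747 and 1.53 CPM, from 22, 3, 14 and 51 reads, with WT2 the lowest and KO1 close to WT1. Its ratios within the groups were 6.55 in WT and 2.05 in AXL KO, below those of the 3 HoxB genes. Abi3, an adaptor gene expressed in macrophages, was at 8.36, 3.87, 5.71 and 7.97 CPM, with ratios of 2.16 and 1.396. Zfp652, a zinc finger gene, was at 70.4, 46.5, 53.6 and 77.9 CPM, and Snx11, a sorting nexin gene, at 20.8, 11.1, 15.4 and 16.3 CPM. The other 4 genes of the 8, Gngt2, Snf8, Ube2z and Nfe2l1, had ratios of 1.05 to 1.27 in WT and 1.09 to 1.13 in AXL KO. The exceptions were Atp5g1, a subunit gene of the mitochondrial ATP synthase, at 72.7, 84.4, 86.0 and 87.8 CPM, and Cbx1, which encodes a heterochromatin protein, at 88.6, 99.0, 93.0 and 95.9 CPM. This count was made after the values were seen and takes a difference of any size, without counting intervals. The part of cell makeup in it was not tested.

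**Figure D3:**
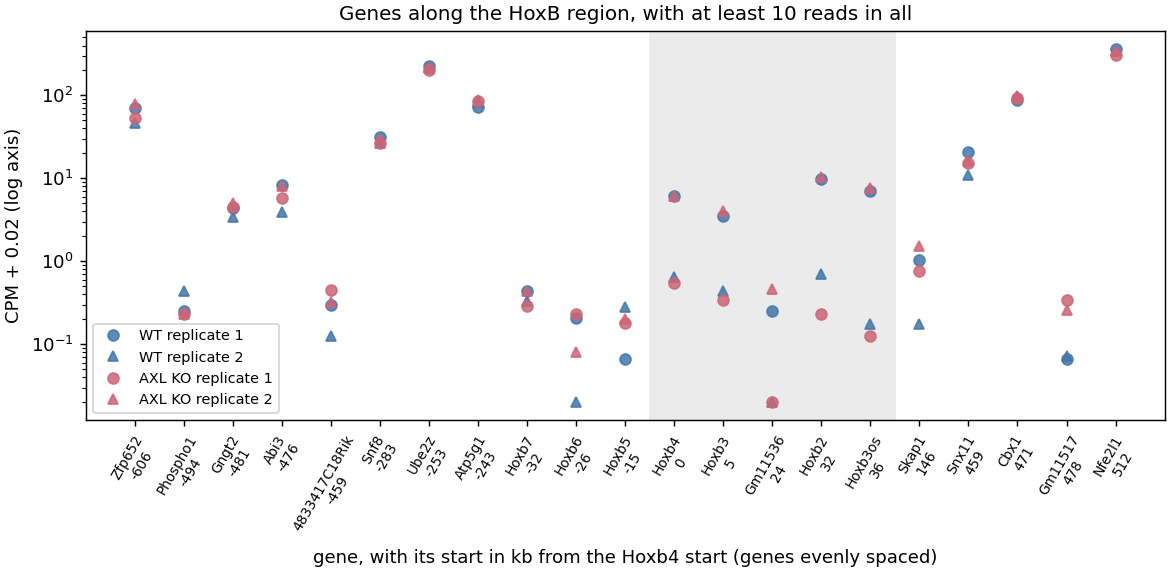
CPM plus 0.02 on a log axis for genes with at least 10 reads in the HoxB region of chromosome 11, in chromosomal order and evenly spaced, with the distance of each start from the Hoxb4 start in kb. In the shaded stretch from Hoxb4 to Hoxb3os, WT1 and KO2 lie above the other libraries, and at Hoxb5 they do not (0.0467 and 0.180 CPM against 0.262 and 0.160).

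Among HoxB genes, promoter sequence of RefSeq (GRCm38.p6) was at hand for Hoxb4, Hoxb8 and Hoxb1. Shown are those of Hoxb4 and of Hoxb1, which lies past Hoxb3 and Hoxb2 and had no read. That of Hoxd8, the other tested Hox gene with a sequence, is shown with them. Each line gives 250 bases before the start of the gene, on the plus strand, with matches to the searched motifs in capitals (either strand). Hoxb4 is chr11:96318017-96318266, Hoxb1 chr11:96365508-96365757 and Hoxd8 chr2:74704365-74704614.
Hoxb4: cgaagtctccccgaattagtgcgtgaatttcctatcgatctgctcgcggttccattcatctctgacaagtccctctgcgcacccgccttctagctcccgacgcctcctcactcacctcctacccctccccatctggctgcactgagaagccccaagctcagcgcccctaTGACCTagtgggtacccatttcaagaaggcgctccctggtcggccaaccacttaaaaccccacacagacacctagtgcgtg
Hoxb1: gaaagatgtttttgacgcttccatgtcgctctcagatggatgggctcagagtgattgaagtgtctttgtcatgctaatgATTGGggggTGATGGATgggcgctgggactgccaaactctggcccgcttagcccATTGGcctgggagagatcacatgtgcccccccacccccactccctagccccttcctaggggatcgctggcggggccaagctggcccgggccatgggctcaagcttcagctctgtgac
Hoxd8: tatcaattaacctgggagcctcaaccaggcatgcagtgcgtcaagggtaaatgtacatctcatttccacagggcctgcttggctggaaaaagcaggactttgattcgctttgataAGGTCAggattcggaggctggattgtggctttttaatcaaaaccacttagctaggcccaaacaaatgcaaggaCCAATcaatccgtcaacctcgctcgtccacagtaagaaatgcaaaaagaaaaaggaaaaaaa

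The motifs, chosen with the values known, were the core promoter element TATAAA, the CCAAT box, the E-box CACGTG, the Pbx and Hox dimer site TGATNNAT, the nuclear receptor half-site AGGTCA and the GC box with letters GGGCGG. Matches were sought on both strands and could overlap. The Hoxb4 window held 1 match, an AGGTCA half-site read on the minus strand, which 14.02% of all 32851 promoter windows of that length hold. Hoxb1 held 2 CCAAT boxes and 1 match to TGATNNAT, which 33.8% and 7.68% of windows hold. Hoxd8 held 1 CCAAT box and 1 AGGTCA. The ratio of observed to expected CpG was 0.760 in the Hoxb4 window, 0.320 in Hoxb1 and 0.487 in Hoxd8, against a median of 0.373 over all windows. Over the 23 windows of the 21 members found in the table, the median was 0.755. Hoxb8, with 1 read in all, had a ratio of 0.974, above that of Hoxb4. Among genes with no read it ran from 0.160 in 1 window of Hoxd11 to 0.901 in Hoxd13. The relation of this ratio to the levels was not tested. A match is a description of these letters and not a bound site.

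The step within both genotypes set Hoxb2 and Hoxb4 apart from nearly all other tested genes. A gap of over 8-fold between the libraries of a group, on CPM plus 0.1, was present in both genotypes for 9 of 14330 tested genes (0.0628%). Hoxb2, Hoxb4 and Hoxb3os were among these 9. Hoxb3 lay just under that limit in WT, with log2 gaps of 2.82 in WT and 3.29 in AXL KO, and at a limit of 4-fold 39 genes (0.272%) passed. Hoxd8 had log2 gaps of 0.64 and 0.48. Both limits were chosen after the values were seen, so these counts describe where the genes lie and test nothing.

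**Figure D4:**
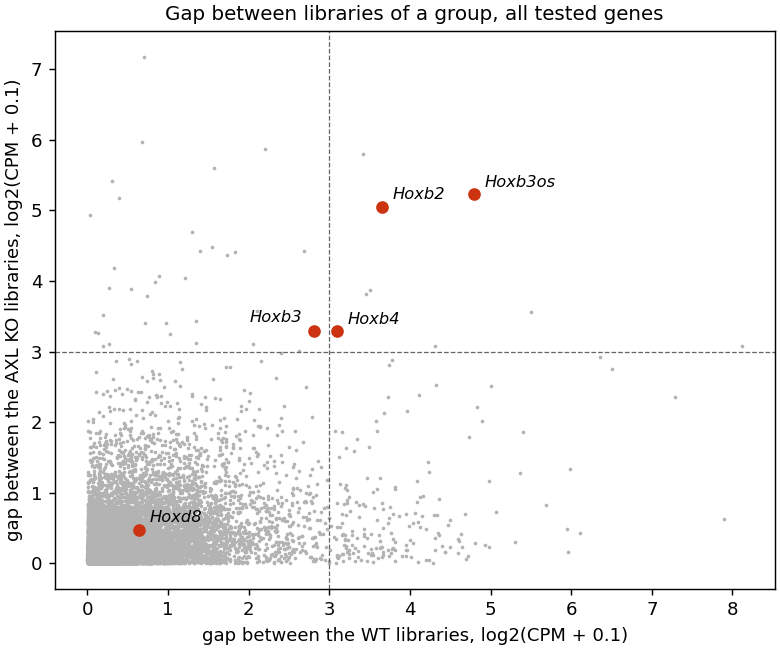
Each grey point is 1 of the 14330 tested genes, placed by the log2 gap between the WT libraries (horizontal) and between the AXL KO libraries (vertical), on CPM plus 0.1, with dashed lines at 3 (8-fold). Hoxb2, Hoxb4 and Hoxb3os (red) lie beyond both lines, Hoxb3 just left of the vertical one, and Hoxd8 close to the origin.

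Between genotypes, the 3 genes showed no difference that the test could separate from the spread of the libraries. A fit over the whole table with edgeR's quasi-likelihood test called 0 of 14330 genes at an adjusted p of 0.05 (0%), and 0 of the 4 Hox genes that passed the low-count filter. DESeq2, which called 16 genes (0.112%), and limma-voom also called 0 of the 4. At an unadjusted p under 0.05 edgeR had 314 genes (2.19%) and 0 Hox genes. The WT mean of Hoxb2 was 5.20 ± 6.39 CPM (SD, n = 2) and the AXL KO mean 5.26 ± 7.14 CPM. Its log2 difference, AXL KO minus WT, was 0.04 with a standard error of 1.63. Hoxb3 averaged 1.98 ± 2.22 and 2.17 ± 2.61 CPM, and Hoxb4 3.37 ± 3.88 and 3.32 ± 3.95 CPM, with log2 differences of 0.17 ± 1.28 (SE) and 0.0081 ± 1.30. The edgeR adjusted p was 0.9997 for each. With standard errors over 1 on the log2 scale, a difference of several-fold between the genotypes was not detectable for these genes.

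The direction of the 3 genes changed with the library left out. For Hoxb2, Hoxb3 and Hoxb4 in turn, the fit without WT1 gave log2 differences of 2.99, 2.45 and 2.46. Without KO2, that is within the libraries of the shared prefix, they were −4.59, −2.64 and −2.67. Without WT2 they were −0.83, −0.62 and −0.81, and without KO1 0.97, 0.997 and 0.84. Each of these fits leaves 1 library in a group, so the spread came from the other group alone and the lone library is assumed to vary like it. No Hox gene was called in them by edgeR, which called 216 genes (1.51%) without WT1 and 0 in the other 3.

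Hoxd8 was the only tested Hox gene whose groups did not overlap. It lies in the middle of the HoxD cluster on chromosome 2, and had 10, 15, 16 and 41 reads. Its level was 0.467, 0.785, 0.854 and 1.23 CPM, so both AXL KO libraries were above both WT libraries. The log2 difference was 0.76 ± 0.55 (SE), with an unadjusted p of 0.225 and an adjusted p of 0.9997 by edgeR, which did not pass. Of all tested genes 14.7% had both AXL KO libraries above and 14.5% both below. With 1 library left out the log2 difference ran from 0.44 to 1.18. The neighbour Hoxd9 had 2, 1, 4 and 9 reads, or 0.0935, 0.0523, 0.214 and 0.270 CPM, too few to be tested. Hoxd3 had 1 read, in KO1.

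Among the 25 members with a read, the groups did not overlap for 5. Both AXL KO libraries were above both WT libraries for Hoxd8 and Hoxd9, where 14.9% of the 20587 genes with a read did so. Both were below for Hoxa3, Hoxa6 and Hoxc9, where 12.8% did so. The members' shares, 2 and 3 of 25, were thus near those of all genes. Hoxa3 had 11, 6, 3 and 9 reads, Hoxa6 12, 2, 0 and 1, and Hoxc9 3, 4, 1 and 1.

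The HoxA cluster was highest in WT1, the cluster sums being 3.83, 1.05, 0.694 and 1.59 CPM. Its counting interval of 3.05 to 4.76 CPM in WT1 lay above those of the other libraries, the highest of which reached 2.08. As for HoxB, KO2 was above KO1, with an interval of 1.190 to 2.08 against 0.369 to 1.187 CPM, so the HoxA sum was higher in the same library of each group, by less than the HoxB sum. Hoxa7, a central gene, had the most reads of the cluster there, 29 of 82. Its reads in the 4 libraries were 29, 2, 4 and 13, and it reached 1.36 CPM in WT1, the highest level outside the 3 HoxB genes. Hoxa5, which has been studied as a tumour suppressor in breast epithelium, had 11, 0, 1 and 10 reads. Hoxa5 reads were thus found mostly in WT1 and KO2, with counts too low to be tested. Hoxa10 was at 0.374, 0.157, 0 and 0.270 CPM, from 8, 3, 0 and 9 reads. Each HoxA gene but Hoxa7 had 29 reads or fewer in all.

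The HoxC cluster was lowest in KO1 and the HoxD cluster lowest in WT1. HoxC genes summed to 1.17, 1.41, 0.267 and 1.05 CPM, from 25, 27, 5 and 35 reads. The AXL KO sums were both below the WT sums, and the interval of KO1 (0.0867 to 0.623 CPM) lay under those of the WT libraries, but the intervals of KO2 (0.731 to 1.46 CPM) and the WT libraries overlapped. Hoxc10, a posterior gene, had 12 reads in WT1 and 0 in the others. Its 12 reads are 0.561 CPM, while 0 reads allow up to 0.157, 0.160 and 0.0899 CPM in WT2, KO1 and KO2. Hoxc8 had 7, 6, 0 and 11 reads, Hoxc6 1, 8, 3 and 11, and Hoxc4 2, 4, 1 and 11. HoxD genes summed to 0.561, 0.837, 1.12 and 1.499 CPM, of which Hoxd8 was the larger part in every library. The HoxD interval of WT1 (0.290 to 0.979 CPM) overlapped those of WT2 (0.478 to 1.36) and KO1 (0.694 to 1.71). It lay under that of KO2 (1.11 to 1.98).

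**Figure D5:**
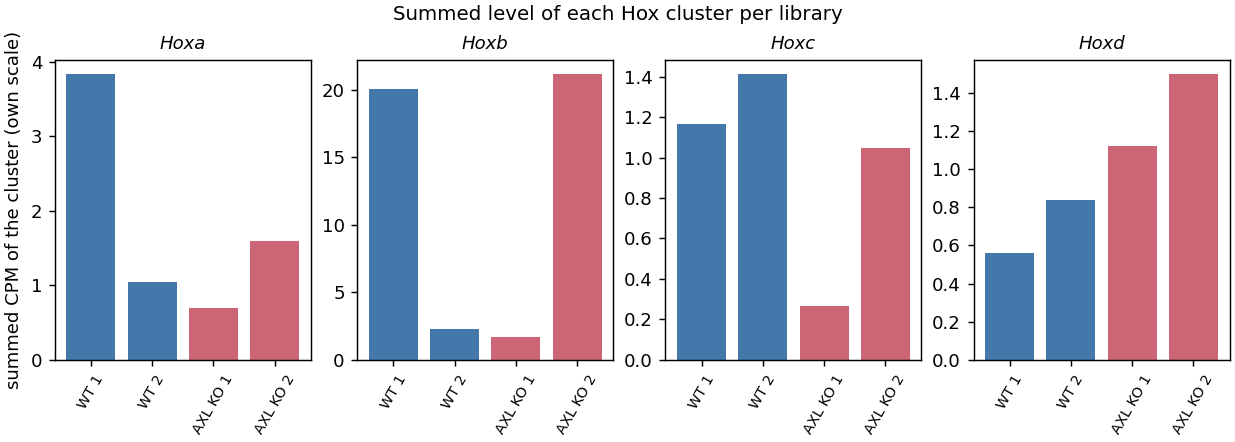
Summed CPM of the genes of each Hox cluster in each library, 1 bar per library, with an axis from 0 in each panel and its own scale. The HoxB bars are 20.0 and 21.1 CPM in WT1 and KO2 and 2.30 and 1.71 CPM in the other libraries, and none of the other clusters exceeds 3.83 CPM.

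Per kilobase of exon, the order of the genes changed between high and low libraries. In WT1 the level per length was 2.79 CPM per kb for Hoxb2, 2.39 for Hoxb4 and 0.835 for Hoxb3, and in KO2 it was 2.96, 2.38 and 0.945. In WT2 Hoxd8 led with 0.286 CPM per kb, before Hoxb4 at 0.245, Hoxb7 at 0.203 and Hoxb2 at 0.195. In KO1 Hoxd8 led as well, with 0.311 CPM per kb, before Hoxb4 at 0.208 and Hoxb7 at 0.173, and Hoxb2 was at 0.0612. With reads this few, the neighbours in the order of the low libraries do not differ beyond counting error. Over the exon length not shared with another counted gene, Hoxb3 rose to a mean of 1.04 CPM per kb from 0.488. By the mean over the 4 libraries the first 3 genes were the same. In WT2 the order changed: Hoxb2 at 0.268 came before Hoxb4 at 0.245, and Hoxb3 at 0.209 before Hoxb7 at 0.203.

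Genes of the proteins that work with Hox factors or control the clusters were read from lists. Hox factors bind DNA together with the TALE homeodomain proteins of the Pbx, Meis and Pknox families. Of 9 such genes 7 were tested, 0 passed the test or had an unadjusted p under 0.05, and the median log2 difference was 0.08, against −0.0019 over all tested genes. Summed, they were at 173, 152, 155 and 173 CPM. Pbx3 had the smallest p of them, at 7.34, 20.2, 6.19 and 5.75 CPM, with KO1 and KO2 below the WT libraries and WT2 the highest (edgeR adjusted p = 0.9997). Pbx2 and Meis3 had log2 differences of −0.28 and 0.64.

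The Polycomb proteins, which silence Hox clusters, had 19 tested genes with a median log2 difference of −0.10 and 0 at an unadjusted p under 0.05. Their summed level ran from 825 to 865 CPM, a range that can hide changes of single genes. Phf19 was at 20.9, 9.99, 28.9 and 28.4 CPM. The part of the Polycomb genes in the Hox levels was not tested. Ezh2, the methyltransferase of the complex, was at 47.6, 57.1, 42.4 and 44.0 CPM, and Phf19 and Pcgf2 had log2 differences of 0.89 and −0.43. Of 11 Trithorax and MLL genes, which keep Hox genes active, 1 was lower at an unadjusted p under 0.05, which 2.19% of all tested genes had in either direction, and 0 passed the adjusted test. This gene was Kdm6b, which encodes a demethylase of the Polycomb mark, at 105, 115, 78.5 and 74.9 CPM, with a log2 difference of −0.52 and an edgeR adjusted p of 0.9997. Kmt2a, the MLL1 methyltransferase gene, was at 72.1, 70.9, 79.8 and 106 CPM, and Dot1l had a log2 difference of −0.37.

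Upstream regulators of the clusters include the caudal genes and the retinoic acid receptors, since retinoic acid switches on anterior Hox genes in the embryo. Of 7 genes 4 were tested and 0 had an unadjusted p under 0.05, with a median log2 difference of −0.42. Rarb, itself a target of retinoic acid, was at 3.78, 1.15, 6.24 and 6.11 CPM, lowest in WT2. The part of these regulators in the Hox levels was not tested. Rara was at 16.6, 13.4, 7.26 and 11.2 CPM and Rarg at 59.6, 101, 55.2 and 55.3 CPM. Of the 10 genes listed as flanking the clusters 9 matched, 7 were tested and 0 had an unadjusted p under 0.05, with log2 differences of −0.39 for Lnpk, −0.47 for Calcoco1 and 0.95 for Skap1.

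Marker genes of cell types in the tumours are given beside the HoxB genes, since tumours can differ in makeup. The 5 T cell markers summed to 14.4, 1.99, 6.41 and 8.72 CPM, and the 6 macrophage markers to 413, 238, 307 and 415 CPM. Both sums were higher in the libraries high for Hoxb2 than in the other library of the group, but not every member was. Cd8a was at 2.19 CPM in KO1 and 1.98 in KO2, and Cd3d at 0.641 and 0.629. Mrc1 was at 20.1 CPM in WT1 and 31.3 in WT2. The other members of both lists ran as the sums did. In KO1 and KO2 the T cell sums were 6.41 and 8.72 CPM, the macrophage sums 307 and 415 CPM, and Hoxb2 was at 0.214 and 10.3 CPM. The 10 fibroblast markers summed to 699, 1015, 291 and 944 CPM, of which Col3a1, the largest, was at 257, 391, 87.6 and 375 CPM. Members of this list differed in order. Pdgfra was at 21.2, 13.2, 17.3 and 19.6 CPM, lowest in WT2, and Fap was lowest in WT1. The other fibroblast markers were lowest in KO1. The 7 endothelial markers summed to 84.5 to 119 CPM and the 8 basal or myoepithelial markers to 19.5 to 59.9 CPM. The 7 adipocyte markers summed to 290 to 313 CPM, mostly from Pnpla2 at 246, 192, 199 and 194 CPM. Adipoq was at 5.19, 14.1, 12.9 and 13.3 CPM. Like Adipoq, Plin1, Cidec and Fabp4 were lowest in WT1, while Lep was lowest in KO1 and Retn in KO2. The 10 luminal epithelial markers, of the cell type that forms these tumours, summed to 3265 to 4099 CPM, with Pgr at 0 in at least 1 library, and the 4 Schwann or nerve markers to 711 to 1020 CPM, of which Sox10 made up 676 to 948 CPM. The 6 skeletal muscle markers were at 1.41 to 2.19 CPM, with Myh4, Myh1 and Tnnt3 at 0 in at least 1 library. No defining marker of the other 7 lists was at 0 in any library, and the part of these cell types in the Hox levels was not tested.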

How the data were processed

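RNA was sequenced in 2 WT and 2 AXL KO tumours. The authors deposited 1 raw read count per gene and library, and per the submitters' processing notes, build GRCm38 and the tools HTSeq 0.5.3, TopHat2 2.0.10, DESeq2 1.4.5 and CASAVA 1.8 were used. Neither strand setting nor annotation release is given there. The 38293 gene rows, of which 36345 matched GENCODE M21, were used without the 5 summary lines. These lines, which name no gene, held 29.4% to 35.6% of each file's summed counts.

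Counts were filtered with filterByExpr by group (14330 genes), scaled with TMM and tested with edgeR 4.0.16 (quasi-likelihood, R 4.3.3), AXL KO minus WT, with p-values adjusted over the whole table (Benjamini-Hochberg). CPM used the TMM factors. The method was tested on simulated counts. Alternatives were other scalings and filters, DESeq2 1.42.0, limma-voom 3.58.1, the replicate number as a block and each library left out. Levels per length used the union of exons.

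Hox genes with a mean of at least 1 CPM were named in every library, statistics were given for tested Hox genes (up to 8), and up to 3 genes with the smallest p were named per list. Other genes were named after their values were seen. The members and lists were chosen with earlier results of these data known. Intervals cover counting error only.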

Additional observations from a re-analysis of the deposited data

How the results depend on the processing

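No Hox gene was called in any fit, which says little about stability, since the main edgeR fit did not call Axl either. Over all genes the count of calls was 0 in edgeR, 16 with DESeq2, and 0 to 216 with 1 library left out, the 216 arising without WT1. The median log2 difference of the tested Hox genes was 0.10, and from −2.66 to 2.46 with 1 library left out, so its sign rests on which library is used. With 1 library left out the log2 difference ran from −4.59 to 2.99 for Hoxb2, from −2.64 to 2.45 for Hoxb3 and from −2.67 to 2.46 for Hoxb4. Hoxb2 turned to −0.37 in limma-voom. Hoxb4 turned to −0.020 in DESeq2. With the replicate number as a block Hoxb2 was at −0.34 and Hoxb4 at −0.054, and the block left the count of calls at 0. The deviations of same-numbered libraries had a correlation of −0.045 over 14330 genes, so the numbers are not taken as pairs. Axl passed with DESeq2 (−3.33) and without WT1 (−2.87). Without the low-count filter 25 Hox genes were tested and 0 passed, with 3 of 25 (Hoxc10, Hoxa6, Hoxc9) and 473 of all 20587 genes at an unadjusted p under 0.05. The 12 reads of Hoxc10 are all from WT1. At a CPM of at least 1 in 2 libraries 3 Hox genes were tested (not Hoxd8). A limit of 4-fold in place of 8-fold between the libraries of a group, chosen after seeing the data, gave 39 genes. Cluster sums with library totals in place of TMM moved by less than the spread between libraries. Where a value moved, the cause was not tested. Each of the 34 untested Hox genes had 48 reads or fewer over the 4 libraries, which limits what their values can show.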

Other observations

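Among the 9 tested genes with a gap of over 8-fold between the libraries of both genotypes, Tbx3 had the same high libraries as the HoxB genes. Tbx3 encodes a T-box transcription factor needed for the formation of the mammary gland. In WT1, WT2, KO1 and KO2 it had 273, 21, 1 and 283 reads, or 12.8, 1.10, 0.0534 and 8.48 CPM. Its edgeR log2 difference between the genotypes was −0.67 ± 1.68 (SE), with an adjusted p of 0.9997. Tbx3 was singled out after its values were seen.

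The other 5 genes of the 9 were high in other libraries. Dhh, the desert hedgehog gene, was at 0.748, 16.7, 0.107 and 1.65 CPM, Ppp2r2c, a phosphatase subunit gene, at 0.234, 92.6, 0.107 and 1.65 CPM, and Dpp10 at 1.495, 72.2, 0.107 and 2.34 CPM. WT2 was the highest library for these 3. Plb1, a phospholipase gene, was at 98.7, 8.58, 1238 and 84.7 CPM, and Prol1 at 2.94, 33.3, 23.8 and 1.59 CPM.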
